A study of Mus musculus with 8 samples.

Results

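The lipins and the acyltransferases of triglyceride synthesis were followed in liver RNA of pregnant mice and of their fetuses, under maternal food restriction (FR) and under free access to food. The genes were Lpin1, Lpin2, Lpin3, Gpam, Agpat1, Agpat2, Agpat3, Dgat1, Dgat2 and Mogat1, taken by name. They were chosen with earlier results of these data known, so shares set beside those of all probes are descriptive. All array probes carrying one of these 10 gene names were taken, and each probe was read on its own. This gave 25 probes of 41174, and 10 genes of 28146 gene names on the array.

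All animals were C57BL/6J. FR mothers received 50% of the chow eaten by control mothers from day 10 to day 17 of gestation, and livers were collected on day 18 from 6 mothers per diet and from 2 male fetuses per mother. The 4 FR pools and the 4 control pools shared 8 two-colour arrays, each FR pool with its control pool, once in each dye orientation: livers of 6 FR mothers against 6 control mothers (2 arrays), livers of 6 FR fetuses against 6 control fetuses (2 arrays), and 2 pairs of fetal pools of 3, Group 1 and Group 2 (4 arrays). The arrays of a pair were counted as 1 replicate, so there were 3 fetal pairs and 1 maternal pair. The labels do not say whether the fetal pools share mothers or fetuses, so p-values measure the spread between pools, which may be partly technical.

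Triglycerides are built from glycerol 3-phosphate by stepwise addition of acyl chains. Gpam, a mitochondrial glycerol 3-phosphate acyltransferase, adds the first chain and the Agpat enzymes add the next, which gives phosphatidate. Lipins remove its phosphate to give diacylglycerol, and Dgat1 and Dgat2 add the last chain. Mogat1 makes diacylglycerol by a separate route, from monoacylglycerol. In mouse liver Lpin1 is also known as a partner of the coactivator Ppargc1a and of Ppara, and as a gene induced by fasting and by glucocorticoids.

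The upstream sequences of Lpin1 and Lpin2 are shown because these genes had the highest maternal FR over control ratios of the 10. They come from RefSeq, build GRCm38.p6, each 250 bases ending just before an annotated start site, 5′ to 3′ on the gene's strand. Of the 10 genes, 8 had at least 1 such window, 13 windows in all. Capitals mark matches, on either strand, to the glucocorticoid receptor motif AGAACA, the cAMP motif TGACG, the E-box CACGTG, the FoxO site GTAAACA, the CCAAT box CCAAT or the GC box GGGCGG. The Lpin1 window is chr12:16610967-16611216 on the minus strand, and those of Lpin2 are chr17:71183282-71183531 and chr17:71204404-71204653 on the plus strand.
Lpin1: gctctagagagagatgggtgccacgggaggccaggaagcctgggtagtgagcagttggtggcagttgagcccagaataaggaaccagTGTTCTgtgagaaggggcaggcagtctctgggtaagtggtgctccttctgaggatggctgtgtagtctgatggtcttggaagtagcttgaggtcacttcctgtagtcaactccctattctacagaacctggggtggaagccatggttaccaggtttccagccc
Lpin2, first start: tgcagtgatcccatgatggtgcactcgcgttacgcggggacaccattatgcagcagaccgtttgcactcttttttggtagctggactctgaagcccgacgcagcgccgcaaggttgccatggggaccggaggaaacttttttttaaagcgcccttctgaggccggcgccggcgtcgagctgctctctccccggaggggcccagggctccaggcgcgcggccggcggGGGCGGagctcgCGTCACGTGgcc
Lpin2, last start: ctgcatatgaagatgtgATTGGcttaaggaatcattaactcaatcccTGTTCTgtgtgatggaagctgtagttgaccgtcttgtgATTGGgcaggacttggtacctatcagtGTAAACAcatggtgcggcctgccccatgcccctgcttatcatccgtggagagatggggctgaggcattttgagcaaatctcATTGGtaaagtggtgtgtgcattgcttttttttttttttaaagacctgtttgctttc
In the Lpin1 window the only match was 1 glucocorticoid receptor motif on the opposite strand, at position -163 from the start site, and 16.1% of 32851 windows of the same length held that motif. The first Lpin2 window held a GC box (32.7% of windows), and a cAMP motif on the opposite strand (17.8%) overlapping an E-box (6.02%). The last Lpin2 window held a FoxO site (3.17%), a glucocorticoid receptor motif and 3 CCAAT boxes (33.8%), the last 2 motifs on the opposite strand. A further Lpin2 window, not shown, held a GC box. The glucocorticoid receptor palindrome (0.00913% of windows), the cAMP response element TGACGTCA (1.55%), the PPAR direct repeat (0.0335%) and the sterol response element TCACNCCAC (1.05%) were searched in the same way and matched in 0 of the 13 windows.

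Signal was well above background in both channels on all arrays for 25468 probes. The ratios of dye-exchanged arrays correlated at 0.74 for mothers, 0.61 for the fetal pools of 6, 0.86 for Group 1 and 0.71 for Group 2, across probes, which are not independent replicates. Alb, a hepatocyte gene, had log2 levels of 17.21 in control mothers and 17.27 to 17.56 in control fetuses. No spot of the 25 probes was saturated, and all but 2 Mogat1 probes were well above background in both diets on every array. The maternal arrays and the fetal pools of 6 lay on slide 1, and Groups 1 and 2 on slide 2. On slide 1, the imaging software marked spots of all 4 Lpin1 probes as non-uniform on 2 or 3 of the 4 arrays. It also marked Lpin2 A_51_P256323 on 3 arrays, Dgat1 A_52_P456134 on 2, and the Agpat2 and Agpat3 probes on 3 or 4.

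In fetal liver, FR raised Lpin1 and Lpin3 and lowered Gpam, Dgat1, 2 of the 3 Dgat2 probes and 1 of the 2 Agpat1 probes. Of the 24 probes that passed the filter (well above background for at least 1 diet on every fetal array), 5 rose and 6 fell at an adjusted p under 0.05 (limma on 3 pool pairs, Benjamini-Hochberg over all probes), which is 45.8%, beside 25.2% of all 30812 probes tested. Upward calls made up 10.9% of all probes and downward calls 14.3%. All 6 downward calls lost the threshold with slide as a block. Without the pools of 6, these 6 and the Lpin3 call lost it. The median log2 ratio of the 24 probes was 0.04, and that of all probes was 0.00453. In maternal liver 9 of 24 measured probes were at least 1.5-fold higher with FR on both arrays, all 4 of Lpin1 and all 5 of Lpin2, and 0 were lower, beside 6.36% of 28326 probes (2.93% higher, 3.44% lower). At 2-fold on both arrays 8 were higher, beside 2.04% of all probes (1% higher, 1.03% lower). The maternal pair has no replicate, so its ratios have no test of their own. The median maternal log2 ratio was 0.40 over the measured probes of the 10 genes and 0.00362 over all probes.

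**Figure D1:**
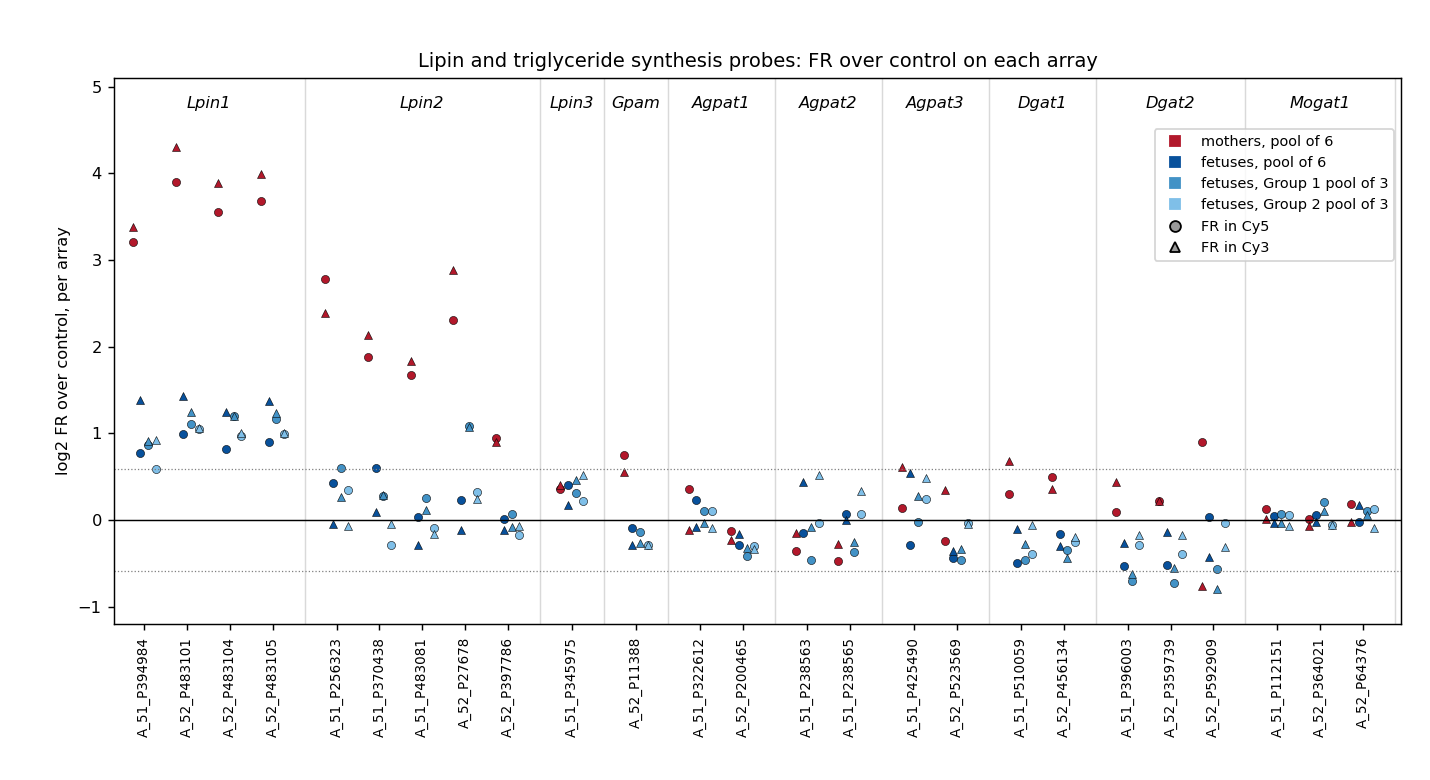
Log2 FR over control (y axis) of each of the 25 probes (x axis) on each of the 8 arrays; colour gives the pool pair, circles have FR in Cy5 and triangles FR in Cy3, and dotted lines mark 1.5-fold. The maternal Lpin1 points lie between 3.21 and 4.31, above all fetal Lpin1 points, which lie between 0.59 and 1.43.

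Lpin1 stood highest of the 10 genes in both mothers and fetuses. On its brightest probe, A_52_P483101 (mm9, chr12:16544129-16544188, minus strand), the log2 ratios were 3.90 and 4.31 on the maternal arrays, a mean of 4.10, or 17.2-fold. The same probe had log2 ratios of 0.99 and 1.43 for the fetal pools of 6, 1.11 and 1.25 for Group 1, and 1.05 and 1.06 for Group 2. FR was therefore higher than control on 8 of 8 arrays, and each maternal value exceeded every fetal one. The share of all probes apart in this way was not counted. The fetal mean was 1.15 ± 0.08 (SD, n = 3 pool pairs), or 2.21-fold, with an adjusted p of 0.00407 in limma. The other 3 Lpin1 probes gave maternal means of 3.30 to 3.83 (9.82-fold to 14.3-fold) and fetal means of 0.91 ± 0.16, 1.07 ± 0.11 and 1.11 ± 0.11, with limma adjusted p-values of 0.00492, 0.00441 and 0.00441. Probes A_52_P483104 and A_52_P483105 share 40 bases and are not separate evidence. Among the maternal ratios of all 28326 probes measured, the Lpin1 probes held ranks 2, 4, 6 and 7 from the top, while among 30812 fetal ratios they held ranks 69, 77, 89 and 164. All 4 fetal calls held with slide as a block (adjusted p 0.0291) and within slide 2 alone, that is without the pools of 6 (0.0475). Rescaling the ratios of all arrays to 1 spread left their fetal log2 ratios at 1.06 to 1.27 with adjusted p-values of 0.0537 to 0.0805, and 0 of 30812 probes then passed. With non-uniform spots left out no Lpin1 probe was measured on both maternal arrays, and all 4 fetal calls held.

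Lpin2, a second phosphatidate phosphatase of liver, was higher with FR in mothers on all 5 of its probes and passed the test on none of them in fetuses. Its probe A_51_P370438 crosses an exon junction, since its 60 bases span 367 bases of mm9 (chr17:71595823-71596189, plus strand), and its sequence is shown because it reads spliced Lpin2 RNA.
Lpin2 A_51_P370438: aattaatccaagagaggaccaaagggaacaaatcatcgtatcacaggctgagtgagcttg
This probe had log2 ratios of 1.88 and 2.13 on the maternal arrays, a mean of 2.01 or 4.01-fold. In fetuses it had 0.60 and 0.09 for the pools of 6, 0.27 and 0.29 for Group 1, and -0.28 and -0.04 for Group 2. The fetal mean was 0.16 ± 0.28 (SD, n = 3 pool pairs; limma adjusted p = 0.344), and the pools differed in sign. The brightest Lpin2 probe, A_51_P256323 (mm9, chr17:71598998-71599057), had maternal log2 ratios of 2.78 and 2.39 and a fetal mean of 0.25 ± 0.16 (SD, n = 3; limma adjusted p = 0.0566). The 3 other probes are annotated to cDNA clones. Their maternal means were 2.60 (A_52_P27678, whose clone is annotated as unspliced), 1.75 (A_51_P483081) and 0.93 (A_52_P397786), and their fetal means were 0.47, -0.02 and -0.06. From the deposited ratios the maternal value of A_52_P397786 was 1.87 and that of A_51_P370438 was 2.63. The largest fetal value was on A_52_P27678 in Group 1, 1.08 in both dye orientations, against -0.11 to 0.32 in the other fetal pools.

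Lpin3, the third lipin, had log2 ratios of 0.35 and 0.40 on the maternal arrays. In fetuses its pool pairs had 0.29, 0.39 and 0.37, a mean of 0.35 ± 0.05 (SD, n = 3), or 1.27-fold, and the rise passed the test (limma adjusted p = 0.0106). It was higher with FR on 6 of 6 fetal arrays. Without the pools of 6 its adjusted p was 0.0570.

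Gpam, which adds the first acyl chain, had log2 ratios of 0.75 and 0.56 on the maternal arrays, the second just short of 1.5-fold. In fetuses it fell, with pool pairs at -0.19, -0.20 and -0.29 and a mean of -0.22 ± 0.06 (SD, n = 3; limma adjusted p = 0.0286). All 6 fetal values were below 0 and both maternal values above it, a split whose share over all probes was not counted. The 2 probes of Agpat1, an enzyme of the second acylation, differed: A_52_P200465 fell in fetuses to a log2 ratio of -0.31 ± 0.07 (SD, n = 3; limma adjusted p = 0.0159), while A_51_P322612, which crosses an exon junction, was at 0.04 ± 0.03 (limma adjusted p = 0.584). In mothers they were at -0.18 and 0.12. Agpat2, the family member mutated in an inherited human lipodystrophy, passed the test on neither probe, with fetal means of 0.04 ± 0.27 and -0.02 ± 0.26 (SD, n = 3), Group 1 below 0 and the other pools above it on both. Its maternal ratios were -0.25 and -0.37. These probes share 40 bases and are not separate evidence. The Agpat3 probes also went apart in fetuses, at 0.20 ± 0.14 and -0.28 ± 0.21, with limma adjusted p-values of 0.0781 and 0.0717, and their maternal ratios were 0.37 and 0.05.

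Dgat1, which can add the last acyl chain, was read by 2 probes that cross exon junctions. Their sequences are shown because both gave opposite signs in mothers and fetuses (mm9, minus strand, chr15:76333491-76333707 and chr15:76333128-76333274).
Dgat1 A_51_P510059: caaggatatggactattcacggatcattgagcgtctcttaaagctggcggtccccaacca
Dgat1 A_52_P456134: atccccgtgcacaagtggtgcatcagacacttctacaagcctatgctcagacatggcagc
Probe A_51_P510059 had log2 ratios of 0.30 and 0.68 on the maternal arrays and, by fetal pool pair, -0.30, -0.37 and -0.22. Probe A_52_P456134 had 0.50 and 0.36 on the maternal arrays and -0.23, -0.39 and -0.23 by fetal pool pair. No maternal value overlapped a fetal one on either probe, and how many of all probes were apart in this way was not counted. The fetal means were -0.30 ± 0.07 and -0.28 ± 0.10 (SD, n = 3), with limma adjusted p-values of 0.0167 and 0.0230.

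Dgat2, a structurally unrelated enzyme of the same step, fell in fetuses on 2 of 3 probes, to log2 ratios of -0.43 ± 0.22 and -0.42 ± 0.20 (SD, n = 3; limma adjusted p 0.0273 and 0.0244). By pool pair the brighter of these, A_51_P396003, had -0.40, -0.66 and -0.23. The third and brightest probe, A_52_P592909, was at -0.35 ± 0.28 (limma adjusted p = 0.0745). Maternal means were 0.26, 0.22 and 0.07, and on the third probe the maternal arrays opposed each other, 0.90 with FR in Cy5 and -0.76 with FR in Cy3. Spots of the Dgat2 probes were marked as non-uniform on 2 to 4 of the slide 1 arrays. All 6 downward fetal calls lost the threshold with slide as a block (adjusted p 0.0558 to 0.0940) or without the pools of 6 (0.0632 to 0.110), at log2 ratios of -0.22 to -0.46, and 5 of the 6 lost it without Group 1. Mogat1 was dim: on A_51_P112151 the FR channel was well above background on 2 of 6 fetal arrays and the control channel on 3, so it was not tested in fetuses. The other Mogat1 probes had fetal means of 0.04 and 0.06 and passed no test (limma adjusted p 0.658 and 0.397).

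Whether FR acted differently on mothers and fetuses was tested as the maternal minus the fetal log2 ratio, in a limma fit over 4 pool pairs that takes the lone maternal pair to vary as the fetal pairs do. Of 23 probes tested, 11 were higher and 0 lower, beside 3.18% of 27476 probes (1.59% each way): all 4 of Lpin1, 4 of Lpin2, both of Dgat1, and Gpam. The median difference was 0.71 over the 23 probes and 0.00736 over all. Lpin1 differed by 2.39 to 2.96 on the log2 scale (standard errors 0.11 to 0.14, adjusted p 0.00527 to 0.00911). Lpin2 differed by 2.33, 1.85, 1.78 and 0.99 (adjusted p 0.00911, 0.0234, 0.0139 and 0.0170), and by 2.13 on the probe of the unspliced clone (0.0620). The smallest of these, 0.99 on A_52_P397786, was 2.07 from the deposited ratios. Gpam differed by 0.88 ± 0.10 (SE, adjusted p = 0.0213) and the Dgat1 probes by 0.79 and 0.71 (adjusted p 0.0303 and 0.0445). Lpin3 differed by 0.03 (adjusted p = 0.909). The Dgat2 probes differed by 0.69, 0.63 and 0.42, with adjusted p-values of 0.117, 0.121 and 0.373. Within slide 1 alone the Lpin1 differences were 2.22 to 2.90. Without the fetal pools of 6, 0 of 23 passed (0 of 27556 probes), with Lpin1 at 2.47 to 2.99 and an adjusted p of 0.0838, and with rescaled arrays 2 passed, both of Lpin2.

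**Figure D2:**
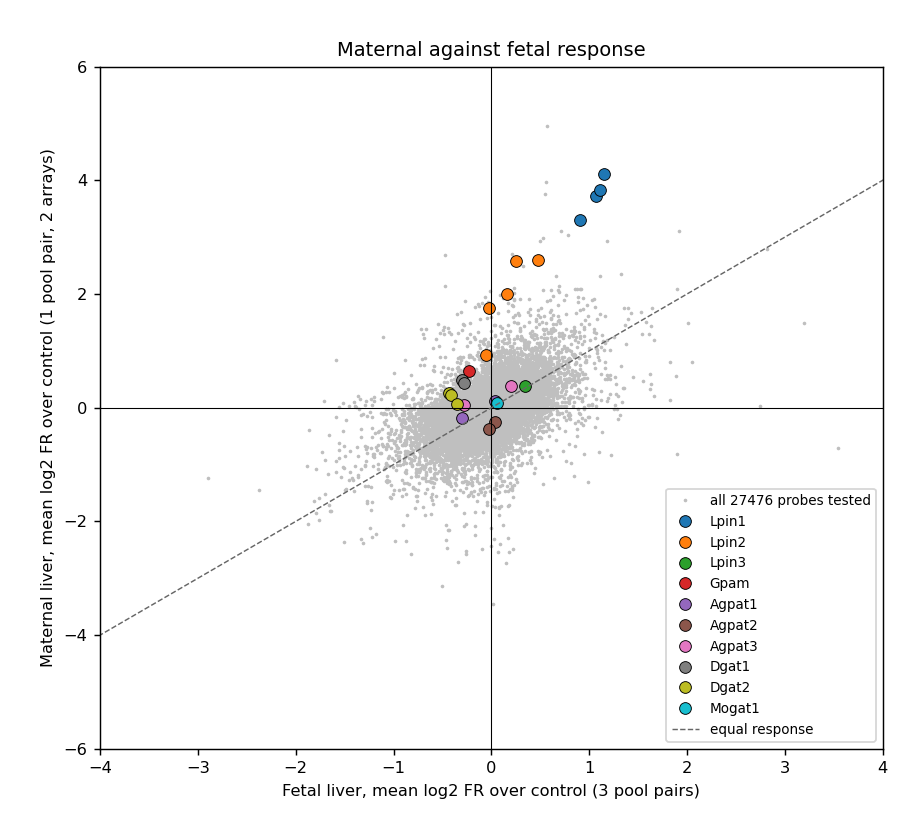
Mean log2 FR over control in maternal liver (y axis, 1 pool pair) against fetal liver (x axis, 3 pool pairs) for the 27476 probes tested in both (grey) and the 23 probes of the 10 genes among them (coloured by gene); the dashed line marks equal response. Lpin1 lies near 1 on the fetal axis and above 3 on the maternal axis, Lpin2 lies between -0.06 and 0.47 on the fetal axis, and Gpam and Dgat1 lie left of 0 and above 0.

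Levels were compared between mothers and fetuses within each diet, on single-channel log2 values after loess and quantile normalization of mean intensity (Aquantile). Mothers have 1 pool per diet, so the spread behind each SE and p comes from the 3 fetal pools, and the maternal pool is assumed to vary like them. In a bulk sample, fewer cells of a type and less RNA per cell cannot be told apart. In control animals 7 of 25 probes were higher and 6 lower in mothers than in fetuses (limma adjusted p under 0.05), beside 32.4% of 30531 probes, and the 6 lower ones were all 4 of Lpin1, 1 of Lpin2 and 1 of Agpat1. Without the Group 1 pool 7 of 25 passed, with all 4 of Lpin1 among them. In FR animals 19 of 24 were higher and 1 lower in mothers, beside 29% of 30976 probes. The FR difference of a probe is its control difference plus its difference in response, so it is not separate evidence. The median difference of the probes was 0.06 in control animals and 1.00 in FR animals, and those of all probes were 0.0158 and 0.0327.

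For Lpin1 the order of mothers and fetuses turned with the diet. In FR animals the brightest probe had a log2 level of 14.73 in mothers and of 13.99, 13.80 and 13.69 in the fetal pools, a difference of 0.90 ± 0.20 (SE, limma adjusted p = 0.0205). In control animals it had 10.62 in mothers and 12.78, 12.62 and 12.64 in the fetal pools, a difference of -2.06 ± 0.16 (SE, limma adjusted p = 0.000866). On all 4 probes the maternal control pool differed from the fetal mean by -1.19 to -2.06 (limma adjusted p 0.000866 to 0.00799). Of all probes 15.5% were called lower in control mothers. The maternal FR pool differed from the fetal mean by 0.90 to 1.19 on the 4 probes (limma adjusted p 0.0132 to 0.0240). Of all probes 15.8% were called higher in FR mothers. The brightest Lpin2 probe showed the same order, with 15.02 in FR mothers against 13.57 to 13.97 in FR fetuses, and 12.44 in control mothers against 13.44 to 13.53 in control fetuses (differences of 1.27 and -1.06, limma adjusted p 0.00885 and 0.00582). The 4 other Lpin2 probes differed by -0.63 to 0.06 in control animals, with limma adjusted p-values of 0.158 to 0.868, and were higher in FR mothers than in FR fetuses by 1.05 to 1.76 (limma adjusted p 0.00620 to 0.0338).

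**Figure D3:**
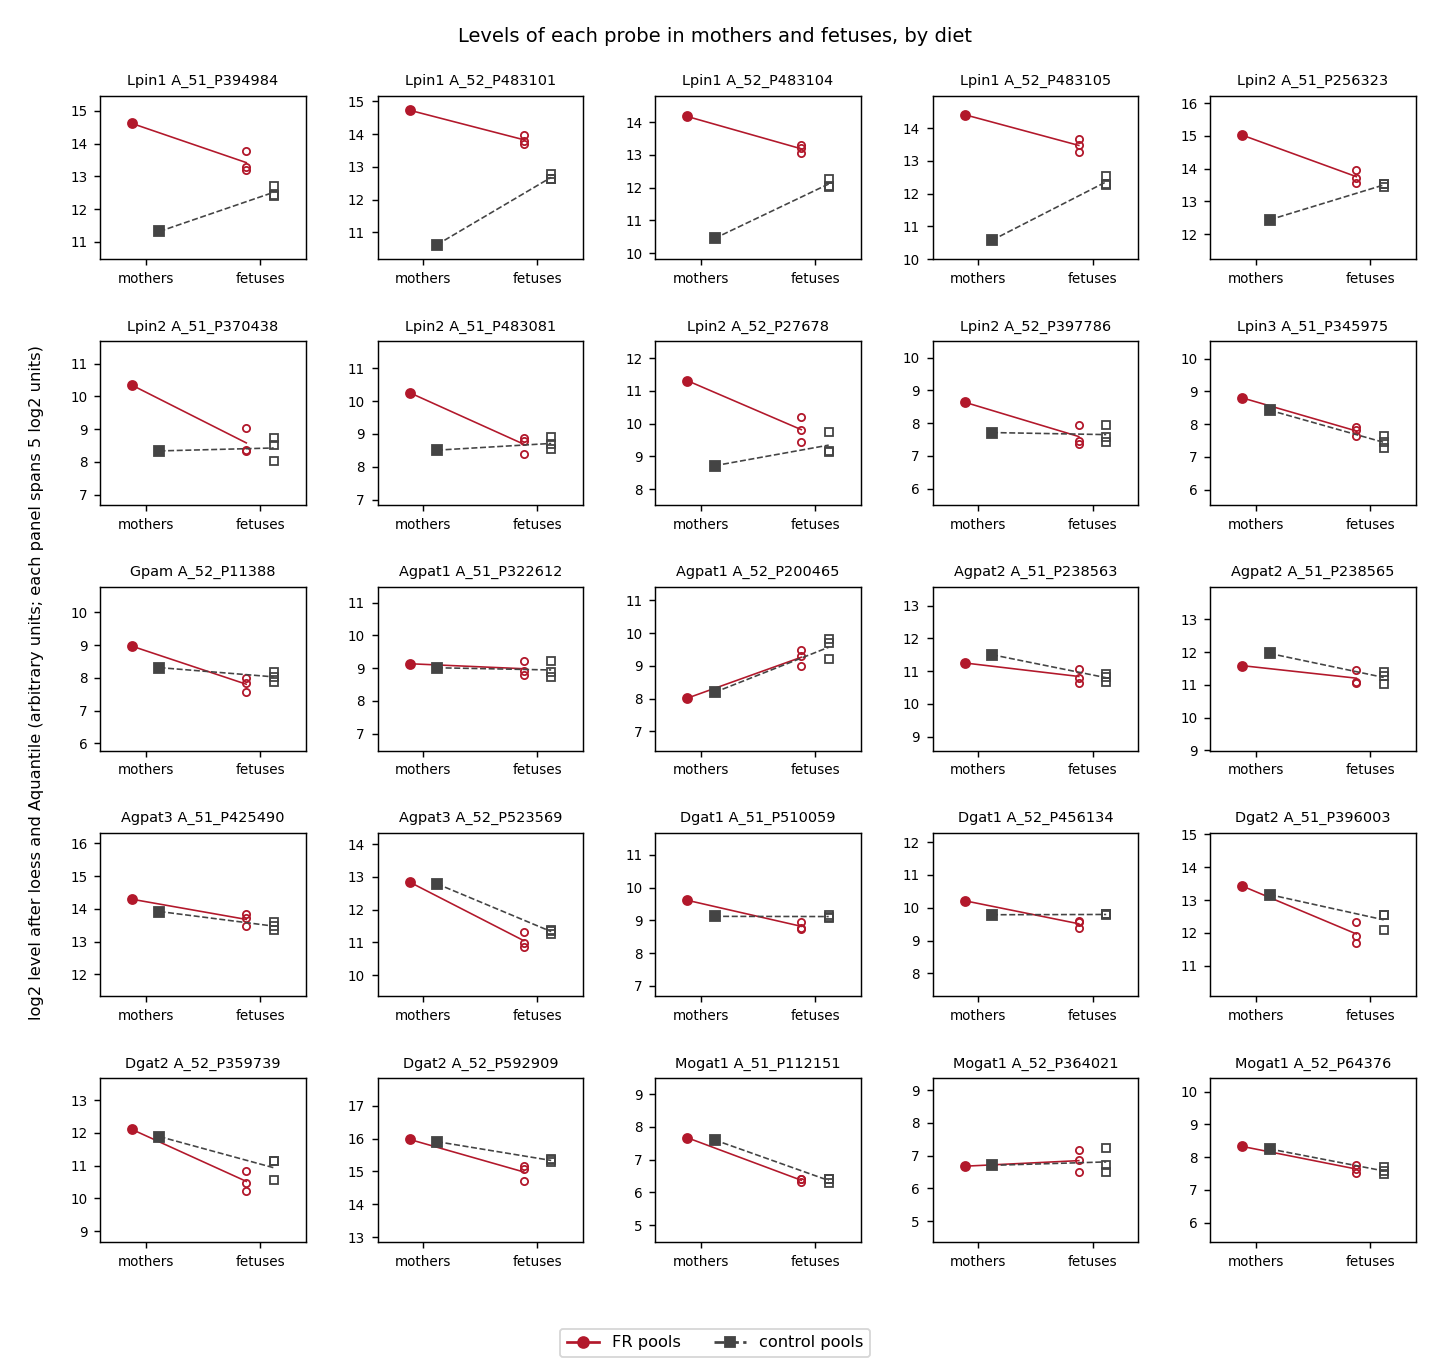
Log2 level (y axis, arbitrary units) of each of the 25 probes in mothers (1 pool per diet) and fetuses (3 pools per diet); circles and solid lines are FR pools, squares and dashed lines control pools, and each line joins the maternal value to the fetal mean. On the Lpin1 panels and the Lpin2 A_51_P256323 panel the FR line falls from mothers to fetuses and the control line climbs, so the diets lie farther apart in mothers.

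Among the acyltransferases, the control level of Dgat1 differed between mothers and fetuses by 0.01 ± 0.15 and -0.01 ± 0.15 (SE; limma adjusted p 0.981 and 0.972), and in FR animals it was higher in mothers by 0.80 and 0.70 (limma adjusted p 0.0259 and 0.0388). Gpam differed by 0.28 ± 0.18 in control animals (SE; adjusted p = 0.295) and was higher in FR mothers by 1.16 ± 0.22 (SE; limma adjusted p = 0.0125). Lpin3 was higher in mothers with either diet, by 1.01 with FR and 0.98 in control animals (limma adjusted p 0.0139 and 0.0171). Agpat3 A_52_P523569 was higher in mothers by 1.79 with FR and 1.46 in control animals (limma adjusted p 0.00327 and 0.00225), while its other probe passed neither test. Dgat2 was higher in FR mothers by 0.99 to 1.58 on its 3 probes (limma adjusted p 0.00897 to 0.0267), and in control animals by 0.57 on A_52_P592909 (adjusted p = 0.0381), with 0.77 and 0.95 on the others (0.0633 and 0.0530). Agpat1 A_52_P200465 was the 1 probe lower in mothers in both diets, by 1.25 with FR and 1.38 in control animals (limma adjusted p 0.0132 and 0.0153). Mogat1 was near background. On A_52_P64376 it was higher in control mothers by 0.67 (limma adjusted p = 0.0306). On A_51_P112151 the control channel was well above background on 2 of 2 maternal arrays and 3 of 6 fetal arrays, and the difference, 1.24 (limma adjusted p = 0.00370), ranged from 0.31 to 1.88 over the alternatives tried.

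Markers of other cell types moved with diet in the same pools. Fetal liver at this stage also makes blood cells. The summed linear level of 11 granulocyte markers was 283579 to 312191 in FR fetuses and 474169 to 490017 in control fetuses, and 9 of the 11 fell. Of 10 B-lineage markers 8 fell, with sums of 10641 to 17016 in FR fetuses and 28336 to 32476 in control fetuses. Among all probes tested in fetuses 14.3% fell and 10.9% rose. The 10 erythroid markers had sums of 452556 to 574863 in FR fetuses and 354364 to 460487 in control fetuses, and 1 fell and 0 rose. Of 9 hepatocyte markers 6 fell, among them Ttr by 0.97 and Alb by 0.45, with sums of 640657 to 708680 in FR fetuses and 784228 to 928508 in control fetuses. In mothers the hepatocyte sum was 620409 with FR and 757083 in control animals, with 1 of 9 measured markers higher and 1 lower past 1.5-fold. On Alb the maternal arrays opposed each other, 1.08 with FR in Cy5 and -1.08 with FR in Cy3, as on other bright hepatocyte markers. The maternal granulocyte sum was 13956 with FR and 25034 in control animals. Of 7 measured granulocyte markers 0 were higher and 1 lower, the bright Lyz2 at -1.07, and their median was -0.10. The erythroid sum was 32032 with FR and 55070 in control mothers, where 1 of 6 measured markers was higher and 4 lower past 1.5-fold. Among all probes measured in mothers 2.93% were higher and 3.44% lower. The B-lineage sum was 2639 with FR and 3635 in control mothers, with 0 of 7 measured markers higher and 1 lower. All 9 hepatocyte markers were well above background in control mothers and control fetuses. For contact with other tissue, 6 of 9 adipocyte markers were well above background in control mothers, with a sum of 1295 in FR mothers and 1233 in control mothers, and 7 in control fetuses, with sums of 3278 to 4833 in FR fetuses and 2673 to 3123 in control fetuses. The 9 muscle markers summed to 1396 in FR mothers and 1338 in control mothers, and to 2334 to 4279 in FR fetuses and 2386 to 3004 in control fetuses. The 7 pancreas markers summed to 1841 in FR mothers and 1830 in control mothers, and to 3255 to 7237 in FR fetuses and 2425 to 4754 in control fetuses. In fetuses 2 of 7 adipocyte, 0 of 9 muscle and 1 of 7 pancreas markers tested rose and 0 fell. In mothers 0 of these were past 1.5-fold on both arrays. The 11 macrophage markers summed to 31406 in FR mothers and 44108 in control mothers, and to 70213 to 75220 in FR fetuses and 65127 to 72999 in control fetuses. Of these 11, 1 rose and 3 fell in fetuses, and 0 were higher and 2 lower past 1.5-fold in mothers. The part of these cell types and tissues in the lipin and acyltransferase results was not tested.

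The rest of the pathway was read from 5 lists, each gene at its brightest probe, with the same tests. Genes supplying acyl-CoA and glycerol 3-phosphate moved down in fetuses where they moved: 5 of 13 fell and 0 rose, beside 14.3% of all probes lower and 10.9% higher, with a median log2 ratio of -0.19. Acsl5 and Acsl1, long-chain acyl-CoA synthetases, fell by 0.65 and 0.51 (limma adjusted p 0.00780 and 0.0103), and Gk, glycerol kinase, by 0.38 (0.0295). Aqp9, a glycerol channel, was at -0.49 (limma adjusted p = 0.0705) in fetuses and at 0.45 in mothers. In mothers 0 of 12 measured were past 1.5-fold on both arrays, beside 6.36% of all probes, and Gk was lowest at -0.56.

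Of the other acyltransferases, 7 were tested in fetuses, where 1 rose and 2 fell, beside 10.9% of all probes higher and 14.3% lower, with a median of -0.03. Mogat2, a monoacylglycerol acyltransferase, fell by 0.48 (limma adjusted p = 0.0103) and Gpat2 by 0.38 (0.00830), while Agpat5 rose by 0.27 (0.0258). Gpat3 was at -0.34 (0.286). In mothers 0 of 8 were past 1.5-fold on both arrays (6.36% of all probes), and the highest and lowest were Gpat3 at 0.65 and Gpat2 at -0.63.

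Genes that use phosphatidate or diacylglycerol for other ends, or that regulate lipins, had 2 of 18 rise and 4 fall in fetuses, with a median of -0.10. Over all probes 25.2% passed, 10.9% higher and 14.3% lower. Tamm41, the mitochondrial CDP-diacylglycerol synthase, rose by 0.61 (limma adjusted p = 0.00483) and was at 0.83 in mothers. Selenoi, which uses diacylglycerol to make phosphatidylethanolamine, fell by 0.54 (0.0227) and was at -0.76 in mothers. The diacylglycerol kinases Dgkd and Dgka fell by 0.44 and 0.42 in fetuses (0.00976 and 0.0232). Chpt1, which uses diacylglycerol to make phosphatidylcholine, was the highest of 16 in mothers, at 1.00, and differed from its fetal ratio of 0.11 (limma adjusted p = 0.0406 for the difference).

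Droplet and lipoprotein genes had 2 of 12 rise and 3 fall in fetuses, with a median of -0.02, beside 10.9% and 14.3% of all probes. In mothers 2 were higher and 2 lower past 1.5-fold, beside 2.93% and 3.44% of all probes. The higher were Cidec and Plin4 and the lower Plin2 and Fitm1. Fitm1 was at -0.85 in mothers and 0.13 in fetuses, a difference of -0.98 that passed limma's test. The droplet proteins Cidec and Plin5 rose in fetuses by 0.53 and 0.42 (limma adjusted p 0.00667 and 0.0196) and were at 0.88 and 0.94 in mothers. Plin5 had 0.51 and 1.38 on the maternal arrays, the first short of 1.5-fold. Plin2, the common droplet coat protein of liver, fell by 0.45 in fetuses (0.0296) and was at -1.22 in mothers. Plin4 fell by 0.43 in fetuses (0.00781) but was at 1.32 in mothers, a difference that passed the test (limma adjusted p = 0.00785).

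Of 15 transcriptional regulators, 2 rose and 6 fell in fetuses, with a median of -0.17, beside 10.9% of all probes higher and 14.3% lower. Past 1.5-fold in mothers, 3 were higher and 2 lower, beside 2.93% and 3.44% of all probes. Insig1, a brake on sterol-regulated transcription, fell by 1.03 (limma adjusted p = 0.00986), Cebpa, a hepatocyte transcription factor, by 0.71 (0.0233), and Nr1h3, which encodes the sterol receptor LXR alpha, by 0.64 (0.0352). Nr1h3 was also among those lower in mothers, at -0.71. Ppargc1a, a coactivator known to induce Lpin1, rose by 0.61 in fetuses (0.0277) and was at 1.24 in mothers. Ppargc1b and Cebpb were the highest regulators in mothers, at 2.00 and 1.91, and in fetuses were at 0.20 (0.237) and 0.29 (0.0169). Both differences passed the test (limma adjusted p 0.0261 and 0.00916).

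**Figure D4:**
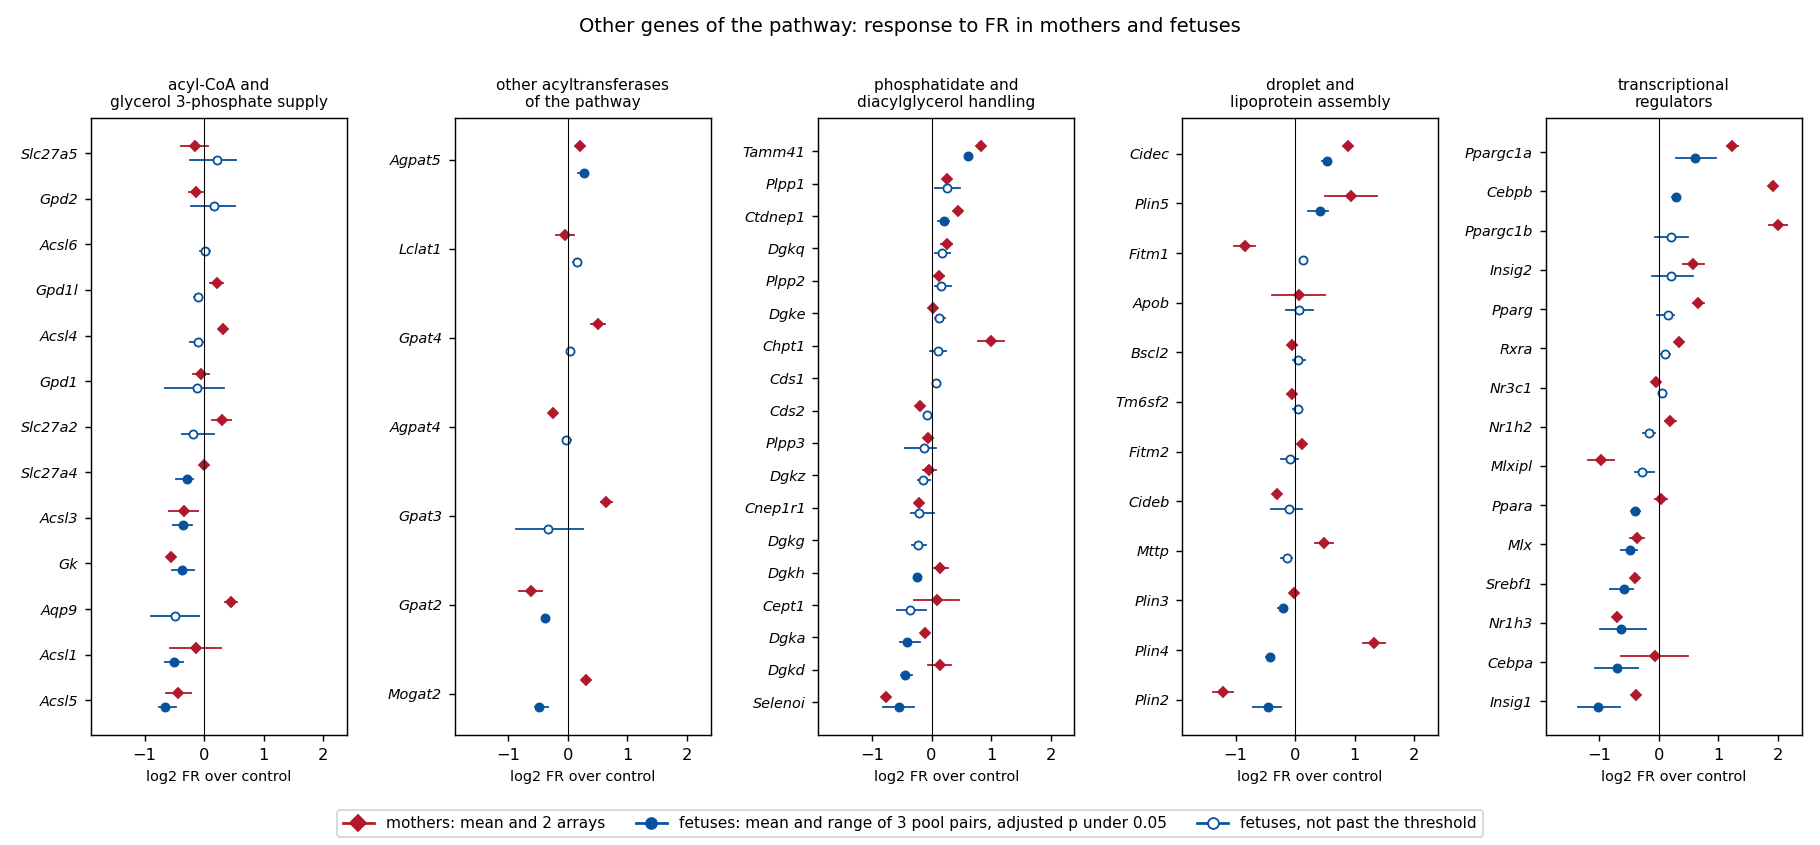
Log2 FR over control (x axis) of the other pathway genes in 5 lists, sorted by fetal value; red diamonds are maternal means with a line between the 2 arrays, blue circles fetal means with the range of 3 pool pairs, filled where the adjusted p was under 0.05. Plin4 lies at 1.32 in mothers and -0.43 in fetuses, and Ppargc1b and Cebpb lie farthest right in mothers.

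The 5 genes whose ratios lay nearest to those of the brightest Lpin1 probe, by Euclidean distance over the 8 arrays among 22331 candidate probes, were Eif4ebp3 (distance 1.83), Rgs16 (1.87), Trib3 (1.88), Dbp (1.93) and Usp2 (2.38). Their maternal log2 ratios were 3.97, 4.96, 3.04, 3.11 and 2.92. Their fetal means were 0.56 ± 0.50, 0.57 ± 0.11, 0.79 ± 0.10, 0.71 ± 0.05 and 0.49 ± 0.10 (SD, n = 3 pool pairs). Each was lower than the Lpin1 probe in fetuses, and Rgs16 alone of the 5 was higher than it in mothers.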

How the data were processed

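The scanner files hold spot and local background intensity values and flags of 0 or 1, per the file headers; the authors deposited, per spot, log10 of the Cy5 to Cy3 ratio, not turned for the dye exchange. The submitters' processing notes name Agilent Feature Extraction 9.5.3.1, while the headers of slide 2 name 11.0.1.1. In R 4.3.3 with limma 3.58.1, data.table (version 1.17.8) and jsonlite 2.0.0, spot signal (mean on slide 1, median on slide 2, whose files hold no mean) was corrected with normexp (offset 50) and normalized by loess. Control spots and population outliers were left out; non-uniform spots were kept. Ratios were turned to log2 FR over control, and the 2 arrays of a pool pair averaged. Fetal ratios (3 pairs), maternal minus fetal ratios (4 pairs) and levels were tested with lmFit and eBayes, with Benjamini-Hochberg adjustment over all probes; maternal ratios were described by 1.5-fold on both arrays. Symbols were updated through RefSeq (26918 probes by accession, 5082 by symbol, 817 by older symbol, 8357 unmatched). Array number limits precision. The array descriptions also mention rat hippocampus and a Pool 2, against the titles, which were followed.

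The members and lists were chosen with earlier results of these data known. All 10 genes were named. From each pathway list, up to 4 genes of largest fetal and 2 of largest maternal ratio were named, and Fitm1 was added. At most 2 genes per marker list were named, and the 5 genes nearest Lpin1. The scripts were tested on simulated data. Alternatives changed background correction, normalization, spot flags, filters, replicates, slide, dye and spot signal. Probe coordinates are mm9.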

Additional observations from a re-analysis of the deposited data

Results flagged for a closer look

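The response to FR differed between mothers and fetuses on 11 of 23 probes, by limma's test of the difference itself, beside 3.18% of all 27476 probes tested. In each case the maternal log2 ratio was the higher. The differences (maternal minus fetal, log2) were 2.39, 2.96, 2.65 and 2.72 for the 4 Lpin1 probes and 2.33, 1.85, 1.78 and 0.99 for 4 Lpin2 probes. They were 0.88 for Gpam and 0.79 and 0.71 for Dgat1, genes whose maternal ratios were above 0 and whose fetal ratios were below 0 on every array. The share of all probes split in this way was not counted. The lone maternal pair is taken to vary as the fetal pairs do.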

How the results depend on the processing

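Fetal calls numbered 11. They were 0 with arrays rescaled to 1 spread (0 of all 30812 probes in limma) and 5 with slide as a block (3315 of all probes, against 7776). They were 4 within slide 2 alone (1071), the same fit as without the pools of 6, and 4 to 12 with a pool pair left out. Without Group 1 there were 6 (3686 of all), and median centring without loess left 4602 of all. Among the fetal pools, slide, pool size and the use of mean or median spot signal change together and cannot be told apart. Maternal probes past 1.5-fold numbered 9, and 4 with non-uniform spots left out, when 12 were measured and none of Lpin1 was. Of all 28326 probes 1802 were past it, against 3588 from the deposited log10 ratios, 480 with median centring and 1138 of 22203 without non-uniform spots. Over the alternatives 226 single-probe maternal ratios moved by less than the spread between arrays and 26 by more. Of the 26, 9 were with the deposited ratios. Changing the filter or fold threshold, leaving out non-uniform spots or using 1 maternal array could not move a ratio beyond that spread. The 226 therefore include comparisons fixed in advance and do not measure stability. Of ratios past 1.5-fold, 0 changed sign. Calls for the difference numbered 11. They were 7 with median centring (274 of all probes, against 873), 2 with rescaling (155), and 0 to 11 with a pool pair left out; without non-uniform spots 384 of 20614 were called, and 1975 from the deposited ratios. Control level calls numbered 13. They were 7 with non-uniform spots left out, 7 to 16 with a pool left out (7 without Group 1), and 20 in FR channels in place of control channels, where the Lpin1 probes turned to 1.19, 0.90, 0.99 and 0.94 and Lpin2 A_51_P256323 to 1.27. Without Aquantile the median of all probes moved to -0.91, 66.4% were called, and Lpin3 went to -0.19, Agpat2 to -0.22 and -0.11, Dgat2 A_52_P592909 to -0.25 and Mogat1 A_52_P64376 to -0.50; relative to that median each stayed higher in mothers. All-probe level calls were 9900, and 15756 without the pools of 6, 5391 without Group 1, 5954 without non-uniform spots. The causes were not tested. Median spot signal on both slides, chosen after seeing the data, gave 13, 9, 11 and 13. Each array already pairs the diets. Mothers and fetuses were not paired, because there is 1 maternal pool pair and the labels do not link fetal pools to mothers. The maternal and fetal pools may therefore be related. Signal near background limits Mogat1.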
